A study of Mus musculus with 8 samples.

Results

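The genes described here are 6 transcription factors known to drive epithelial-mesenchymal transition (EMT), Zeb1, Zeb2, Snai1, Snai2, Twist1 and Twist2, and Vim, the gene of the intermediate filament protein vimentin. They were taken by symbol from count tables of mouse skin epithelium, where they are 7 of 23433 symbols. Zeb1, Zeb2, Snai2 and Vim passed a filter on low counts with 14176 genes in all, and Snai1, Twist1 and Twist2 did not, so that these 3 were described by their counts without a model test.

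In EMT, epithelial cells lose junctions and polarity and take on a mesenchymal shape and motility. Zeb, Snail and Twist family proteins bind E-box elements in DNA and repress epithelial genes such as the E-cadherin gene, while vimentin filaments replace or join the keratin network. MicroRNAs of the miR-200 family bind the 3′ untranslated regions (UTRs) of the Zeb1 and Zeb2 messages, and the Zeb proteins in turn repress the miR-200 genes, a loop in which each side holds the other down. Snai2, also called Slug, is a normal product of basal keratinocytes. Vimentin and Zeb2 are also made by cells that are not epithelial, among them leukocytes, melanocytes and fibroblasts.

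RNA was sequenced from the hair germ, the epithelial bud that grows into a follicle, and from the interfollicular epidermis (IFE) between follicles, of pups at postnatal day 0.5. Transgenic pups 4 and 6 carried pTRE2-200bcl, a doxycycline-inducible miR-200 construct, with K14rtTA, a transactivator driven by the keratin 14 promoter. Of the control pups, pup 3 carried K14rtTA and pup 5 carried pTRE2-200bcl, so the 2 controls differed in genotype and neither had both parts. All pups were of a mixed strain background, and the dams of all of them ate doxycycline chow while pregnant. Cells were sorted as positive for K14RFP, a reporter of keratin 14, and high for α6 integrin, with high P-cadherin for hair germ and low P-cadherin for IFE. The 4 groups were transgenic hair germ, control hair germ, transgenic IFE and control IFE, with 2 pups each and the same pups in both populations.

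Each library held 7109871 to 14039583 counts in genes. The feature miR200primary had 5973 and 6581 counts in transgenic hair germ, against 2 and 21 in control hair germ, and 4499 and 9449 in transgenic IFE, against 22 and 31 in control IFE. All 4 transgenic libraries lay far above the 4 controls, as their labels say. Rn45s, the ribosomal RNA precursor, took 29.0% of counts in transgenic IFE pup 4 and 30.6% in control IFE pup 3, against 3.56% to 13.0% in the remaining 6. Y-linked genes had 2156 and 1535 counts in the libraries of pup 4 and at most 4 in any other. The sort genes were present throughout, with Krt14 averaging 4715 and 4893 CPM (read counts scaled to library size and TMM factors) in transgenic hair germ and IFE and 7862 and 10379 CPM in the 2 control groups. Cdh3, the P-cadherin gene, was not shown to differ between hair germ and IFE in transgenic pups (log2 difference 0.76, SE 0.23, adjusted p = 0.0889) or in control pups (0.22, SE 0.23, adjusted p = 0.804). Of 9 hair germ genes, Cdh3 among them, 5 were higher in hair germ than in IFE of transgenic pups (Edar, Gli1, Krt17, Lhx2 and Shh) and 0 lower, at adjusted p under 0.05. In control pups 0 of the 9 passed, with 8 above 0 and a median log2 difference of 1.09.

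The mature miR-200 sequences show why the family is split into 2 sets. They are printed 5′ to 3′ from RefSeq (GRCm38.p6), with the seed, bases 2 to 8, in capitals.
mmu-miR-200b-3p: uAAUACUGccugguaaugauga
mmu-miR-200c-3p: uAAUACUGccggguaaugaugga
mmu-miR-429-3p: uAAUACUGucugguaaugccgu
mmu-miR-200a-3p: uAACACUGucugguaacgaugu
mmu-miR-141-3p: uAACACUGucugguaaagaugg
The first 3 share the seed AAUACUG and the other 2 share AACACUG. Mir200a, Mir200b and Mir429 lie on chromosome 4, and Mir141 and Mir200c on chromosome 6. A transcript pairs with the first seed through the letters CAGTATT and with the second through CAGTGTT, read on the transcript's own strand only. The motifs differ in 1 letter, so no position can match both.

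Among the 7 genes, seed matches were concentrated in Zeb1 and Zeb2. CAGTATT occurred 5 times in the 3′ UTR of Zeb1, 5 times in that of Zeb2 and once each in those of Snai1 and Snai2, and 0 times in those of Twist1, Twist2 and Vim. Of 20979 annotated 3′ UTRs of all lengths, 12.6% held at least 1 such match and 0.0238%, 5 genes in all, held 5 or more. CAGTGTT occurred 4 times in Zeb1, 4 times in Zeb2 and once in Snai2, where 16.1% of 3′ UTRs held at least 1 match and 0.224% held 4 or more. The UTRs differ in length, with 4941 bases in Zeb2, 2401 in Zeb1, 1089 in Snai2 and 312 in Vim. A match is a description of letters and was not measured here as a bound site.

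The windows below show the matches of Zeb2 that are followed by A, the longer 8-base form, and the matches of the Snail genes, which have 7 bases. They are in transcript orientation from GRCm38 (GENCODE M21), with the matched bases in capitals.
Zeb2, chr2:44988097-44988126, minus strand: ctacagtgcatCAGTATTAcgattcctcaa
Zeb2, chr2:44987735-44987764, minus strand: agcacccgtgtCAGTATTAgacgactaggc
Zeb2, chr2:44987650-44987679, minus strand: attaattttgtCAGTATTAcaccaaacttt
Zeb2, chr2:44987516-44987545, minus strand: actgtagtgtaCAGTATTAtagttcttcaa
Zeb2, chr2:44988346-44988375, minus strand: aaaattttgtaCAGTGTTAaggcctaaaaa
Zeb2, chr2:44987773-44987802, minus strand: tgcaccagcttCAGTGTTAagctcaccgtg
Snai1, chr2:167542268-167542296, plus strand: ctcctacccctCAGTATTcatgaggtgta
Snai2, chr16:14708712-14708740, plus strand: aaccaaaggaaCAGTATTtcttcttaata
Snai2, chr16:14708297-14708324, plus strand: gtggcgcaacCAGTGTTtactcaaacag
The 4 CAGTATTA matches of Zeb2 lie 458 to 1039 bases after its stop codon, and of the 5 CAGTATT matches of Zeb1, 3 are followed by A.

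**Figure D1:**
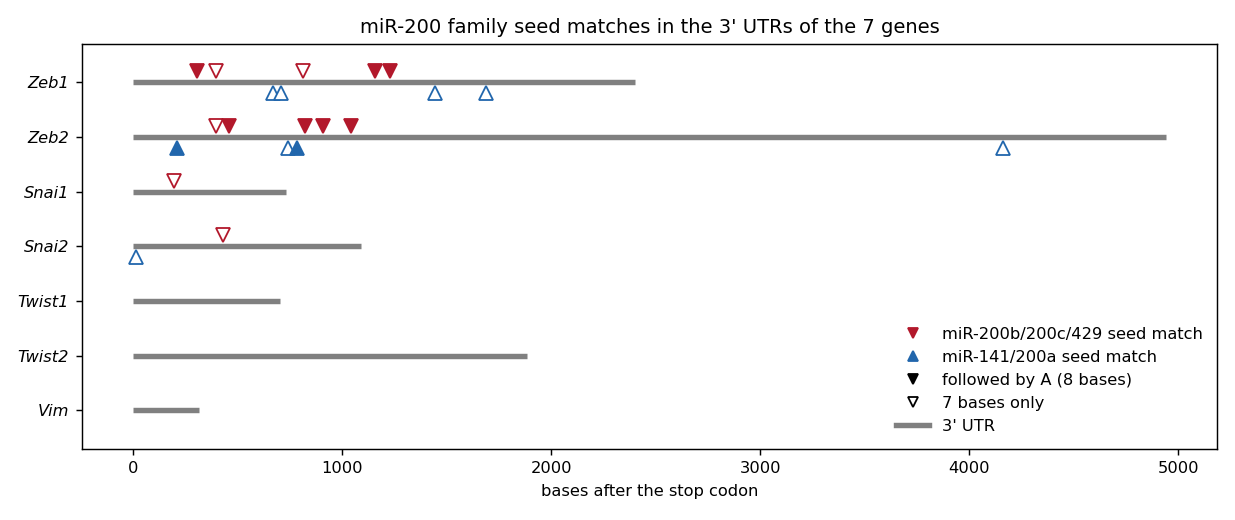
Positions of miR-200 family seed matches in the 3′ UTRs of the 7 genes, in bases after the stop codon. Grey lines are the UTRs, red marks the CAGTATT and blue the CAGTGTT matches, and filled marks are followed by A. Zeb1 and Zeb2 carry 9 matches each, Snai2 has 2, Snai1 has 1, and Twist1, Twist2 and Vim have 0.

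Genes with and without matches were set side by side in the transgenic comparisons. Over all tested genes with an annotated 3′ UTR, the 1871 with a CAGTATT match had a median log2 fold change of -0.12 in transgenic over control hair germ and of -0.18 in IFE, against 0.07 and 0.01 for the 10778 without one. For the 321 with 2 or more matches the medians were -0.24 and -0.28. For CAGTGTT the 2482 genes with a match had medians of -0.04 in hair germ and -0.11 in IFE. The 10167 without one had 0.06 and 0.01. Genes with and without matches were not matched for UTR length or expression level, and the cause of the differences was not tested. Zeb1 and Zeb2 were above 0 in both comparisons, as the values below show.

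Per kilobase of annotated exon, Vim was the most abundant of the 7 genes in both transgenic groups and Snai2 in both control groups, as group means. In control IFE pup 3 Vim was above Snai2, at 105 and 90.6 CPM per kilobase. Vim averaged 311.6 CPM per kilobase in transgenic hair germ and 63.3 in control hair germ, and 2715 in transgenic IFE and 97.2 in control IFE. Snai2 averaged 74.9 in transgenic hair germ and 103 in control hair germ, and 54.5 in transgenic IFE and 115 in control IFE. Zeb2 came next in every group, at 2.21, 0.812, 20.3 and 0.754 CPM per kilobase in transgenic hair germ, control hair germ, transgenic IFE and control IFE. Zeb1 followed at 0.423, 0.0859, 2.20 and 0.339 in the same groups, and Snai1, Twist1 and Twist2 lay at or near 0.

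**Figure D2:**
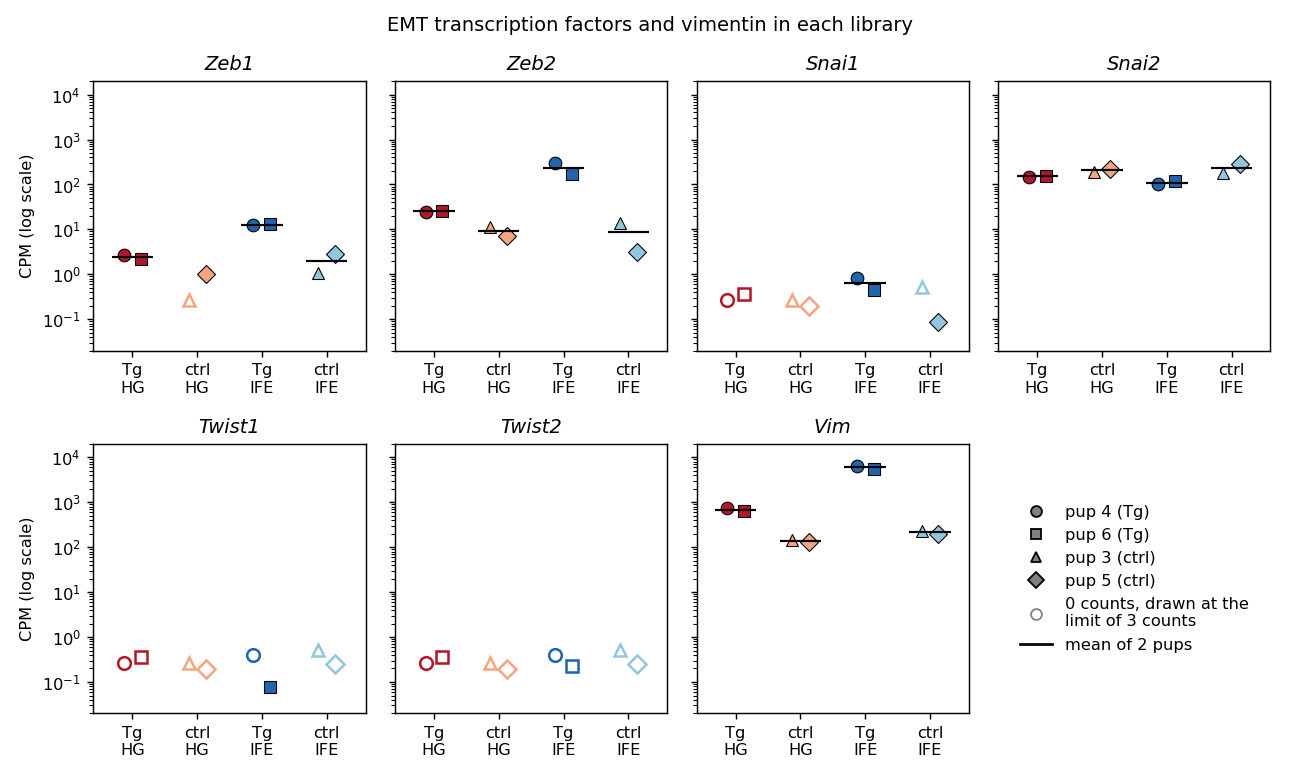
CPM of each of the 7 genes in each library, on a log axis, with transgenic libraries (Tg) left of controls (ctrl) for hair germ (HG) and IFE. Points are pups, bars are means of 2 pups where both have counts, and open points are libraries with 0 counts, drawn at the limit of 3 counts. Vim and Zeb2 are highest in the 2 transgenic IFE libraries, and Snai2 is lowest there.

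Zeb2, a zinc finger and homeodomain repressor, was far higher in transgenic IFE than in control IFE. Its level was 295 and 169 CPM in transgenic IFE pups 4 and 6, from 2185 and 2235 counts, against 14.1 and 3.14 CPM in control IFE pups 3 and 5, from 81 and 37 counts. Both transgenic libraries lay far above both controls, as 27.9% of tested genes did by any margin, and the 2 controls themselves were well apart. The log2 fold change was 4.90 (SE 0.54, edgeR adjusted p = 0.000299), and it was 6.26 without control IFE pup 3 and 4.04 without control IFE pup 5, past the threshold in both. Zeb2 (chromosome 2, 44983632 to 45117395, minus strand) overlaps the antisense gene Zeb2os, which is not among the counted symbols. No source used here gives the strand setting of the counting, so reads of the 2 cannot be told apart.

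In hair germ, Zeb2 stood at 25.0 and 25.7 CPM in transgenic pups 4 and 6, against 11.6 and 6.98 CPM in control pups 3 and 5. The groups did not overlap, as was true in the same direction for 22.4% of tested genes. The difference did not pass the test over all genes (log2 fold change 1.46, SE 0.49, adjusted p = 0.166).

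Zeb1, the close relative of Zeb2, had few counts. It had 91 and 175 counts in transgenic IFE (12.3 and 13.2 CPM), against 6 and 34 in control IFE (1.04 and 2.89 CPM). In transgenic hair germ it had 31 and 18 counts (2.73 and 2.18 CPM), against 0 and 15 in control hair germ (at most 0.264 CPM by the limit of 3 counts, and 0.997 CPM). Transgenic libraries were above controls in each population, as was true for 27.9% of tested genes in IFE and 22.4% in hair germ. Neither difference passed the test, with log2 fold changes of 2.53 in IFE (SE 0.81, adjusted p = 0.0944) and 2.13 in hair germ (SE 1.18, adjusted p = 0.383). The IFE difference passed with an adjusted p of 0.0300 without control hair germ pup 3, 0.0321 without control hair germ pup 5 and 0.0273 in a fit of the 4 IFE libraries alone. Removing control hair germ pup 5 left a control with 0 counts in hair germ, and removing pup 3 there gave a log2 fold change of 1.26. Zeb1 lies on chromosome 18, 5591860 to 5775467, plus strand. Of the genes that overlap it, Gm10125, on the other strand, was counted separately and had 1 count in all 8 libraries together.

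Snai1, the Snail repressor, was at or near 0 throughout. It had 6 and 6 counts in transgenic IFE, against 0 and 1 in control IFE, and 0 counts in all 4 hair germ libraries. The summed counts of 12 and 1 give a ratio of 10.2 with an exact 95% interval of 1.51 to 435, which covers counting error and not the spread between pups. A count of 0 allows up to 0.264 and 0.364 CPM in the 2 transgenic hair germ libraries and 0.264 and 0.199 CPM in the 2 controls. Its gene lies on chromosome 2, 167538195 to 167542814.

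Snai2 moved the other way from Zeb2 and Vim. It had 100 and 120 CPM in transgenic IFE, against 183 and 282 CPM in control IFE, and fell with a log2 fold change of -1.08 (SE 0.24, adjusted p = 0.0186). In hair germ its level was 146 and 156 CPM in transgenic pups, against 193 and 223 CPM in controls (log2 fold change -0.46, SE 0.23, adjusted p = 0.351). The lower level was seen in 2 of 2 transgenic libraries of each population, a pattern shared in direction by 25% of tested genes in IFE and 16.9% in hair germ. Its IFE call was lost without control IFE pup 5 (log2 fold change -0.72, adjusted p = 0.232), without any single transgenic library (-0.95 to -1.19, adjusted p = 0.0533 to 0.260) and without both libraries of pup 4 (-0.89, adjusted p = 0.512). It was lost as well without the 2 Rn45s-rich libraries (-1.21, adjusted p = 0.160) and with libraries scaled by size alone (-0.93, adjusted p = 0.138). Snai2 lies on chromosome 16, 14705852 to 14709385.

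Markers of basal keratinocytes were lower in the same transgenic IFE libraries as Snai2. Of 7 tested, 5 fell (Krt14, Krt15, Trp63, Itgb4 and Col17a1) and 0 rose. Krt14, a keratin of the basal layer, had 4893 ± 296 CPM in transgenic IFE and 10379 ± 1834 CPM in control IFE (SD over 2 pups, log2 fold change -1.08, SE 0.29, adjusted p = 0.0484). Only Krt15 of the 7 fell in IFE without both libraries of pup 4, without the 2 Rn45s-rich libraries or with scaling by library size alone. In hair germ 0 of the 7 rose or fell. Their part in the Snai2 result was not tested.

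Twist1 and Twist2, basic helix-loop-helix factors of mesenchyme, were not detected at this depth, apart from 1 Twist1 count in transgenic IFE pup 6. The limit of 3 counts is 0.199 to 0.522 CPM per library. Twist1 lies on chromosome 12, 33957671 to 33959829, and Twist2 on chromosome 1, 91801461 to 91848028.

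Vim was higher in transgenic than in control pups in both populations, and by more in IFE. In IFE its level was 6306 and 5601 CPM in transgenic pups 4 and 6, from 46750 and 74118 counts, against 231 and 196 CPM in control pups 3 and 5, from 1324 and 2306 counts. In hair germ it was 729 and 638 CPM in transgenic pups, against 146 and 132 CPM in controls. Within each group the pups lay close together, and every transgenic library was above every control library of both populations. Within a population, both transgenic libraries were above both controls for 27.9% of tested genes in IFE and 22.4% in hair germ.

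The log2 fold change of Vim was 4.80 in IFE (SE 0.25, adjusted p = 4.75e-06) and 2.30 in hair germ (SE 0.23, adjusted p = 0.00132). By p-value it was the first of 14176 genes in IFE and the third in hair germ. Without both libraries of pup 4 the hair germ value was 2.18 and did not pass (adjusted p = 0.154). The IFE call was kept in each of the 17 alternatives run. Vim lies on chromosome 2, 13573927 to 13582826.

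Counts of members called are read against the shares of all tested genes. In hair germ 1 of the 4 tested genes passed (Vim) where 0.952% of all genes did, and in IFE 3 passed (Vim, Zeb2 and Snai2) where 6.34% did. The share of all tested genes called higher was 0.762% in hair germ and 4.99% in IFE, and called lower 0.19% and 1.35%.

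The change of Vim differed between the populations. The effect of the transgene in hair germ minus that in IFE was -2.51 on the log2 scale for Vim (SE 0.31, adjusted p = 0.0284), where 0.134% of tested genes, 19 in all, differed at this threshold. For Zeb2 it was -3.44 (SE 0.72, adjusted p = 0.0974), for Snai2 0.62 (SE 0.33, adjusted p = 0.699) and for Zeb1 -0.40 (SE 1.61, adjusted p = 0.996). With the pup as a block, Zeb2 passed as well (-3.48, adjusted p = 0.0196) and Vim kept its call (-2.51, adjusted p = 0.00409), among 86 genes in place of 19. The difference for Vim did not pass when any single transgenic library was left out (-2.43 to -2.68, adjusted p = 0.0810 to 0.248), nor without the 2 Rn45s-rich libraries (-2.57, adjusted p = 0.183) or pup 4 (-2.60, adjusted p = 0.847). Zeb2 passed without control hair germ pup 5 (-3.74, adjusted p = 0.0470).

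Between populations of transgenic pups, Vim and Zeb2 were lower in hair germ than in IFE. The log2 fold change of hair germ over IFE was -3.12 for Vim (SE 0.23, adjusted p = 0.000125) and -3.19 for Zeb2 (SE 0.48, adjusted p = 0.00314), where 4.62% of all tested genes passed, 0.875% higher and 3.75% lower. Neither gene overlapped between the populations, as 28.9% of tested genes did not in this direction and 26.4% in the other. With the pup as a block 1018 genes passed in place of 655, Vim (-3.12, adjusted p = 3.81e-05) and Zeb2 (-3.15, adjusted p = 0.000538) among them. Zeb1 had -2.36 (SE 0.78, adjusted p = 0.114) and Snai2 0.46 (SE 0.24, adjusted p = 0.341). Zeb2 did not pass without transgenic hair germ pup 4 (-3.22, adjusted p = 0.0752) or pup 6 (-3.24, adjusted p = 0.107), and without both libraries of pup 4 neither Vim (-3.20, adjusted p = 0.120) nor Zeb2 (-2.78, adjusted p = 0.306) did. Zeb1 passed without control hair germ pup 3 (-2.40, adjusted p = 0.0409), without control hair germ pup 5 (-2.37, adjusted p = 0.0445) and in the fit of the 4 libraries alone (-2.36, adjusted p = 0.0272).

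In control pups 0 of the 4 genes passed between hair germ and IFE by edgeR, where 0.00705% of tested genes, a single gene, did. At an unadjusted p under 0.05 the test gave 1200 genes, 8.47%, and of the 4 genes it gave Vim alone (-0.62, SE 0.22, adjusted p = 0.528). Zeb2 had 0.25 (SE 0.55), Snai2 -0.16 (SE 0.23) and Zeb1 -1.96 (SE 1.22). Of all tested genes, 19.2% had both control hair germ libraries below both control IFE libraries and 14.2% above, and Vim and Zeb1 were among those below. DESeq2, limma-voom and the older edgeR method also passed 0 of the 4, as did the fit with the pup as a block, in which 7 genes of all passed.

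Ordered by mean level, Vim ran from transgenic IFE through transgenic hair germ and control IFE to control hair germ, with no overlap between neighbours. Of tested genes, 28.9% had IFE above hair germ without overlap in transgenic pups and 19.2% in control pups. No share was counted for transgenic hair germ over control IFE. Zeb2 had transgenic IFE first, 9.15 times above transgenic hair germ, which was 2.73 times above control hair germ, and the libraries of control hair germ and control IFE overlapped. Zeb1 had transgenic IFE 5.19 times above transgenic hair germ, whose libraries overlapped those of control IFE, and control hair germ was lowest. For Snai2 the order was reversed, with control IFE and control hair germ overlapping at the top. Control hair germ was 1.37 times above transgenic hair germ, which was 1.37 times above transgenic IFE, with no overlap at either step. Of tested genes, 16.9% did not overlap in the direction of the first of these steps and 26.4% in that of the second.

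**Figure D3:**
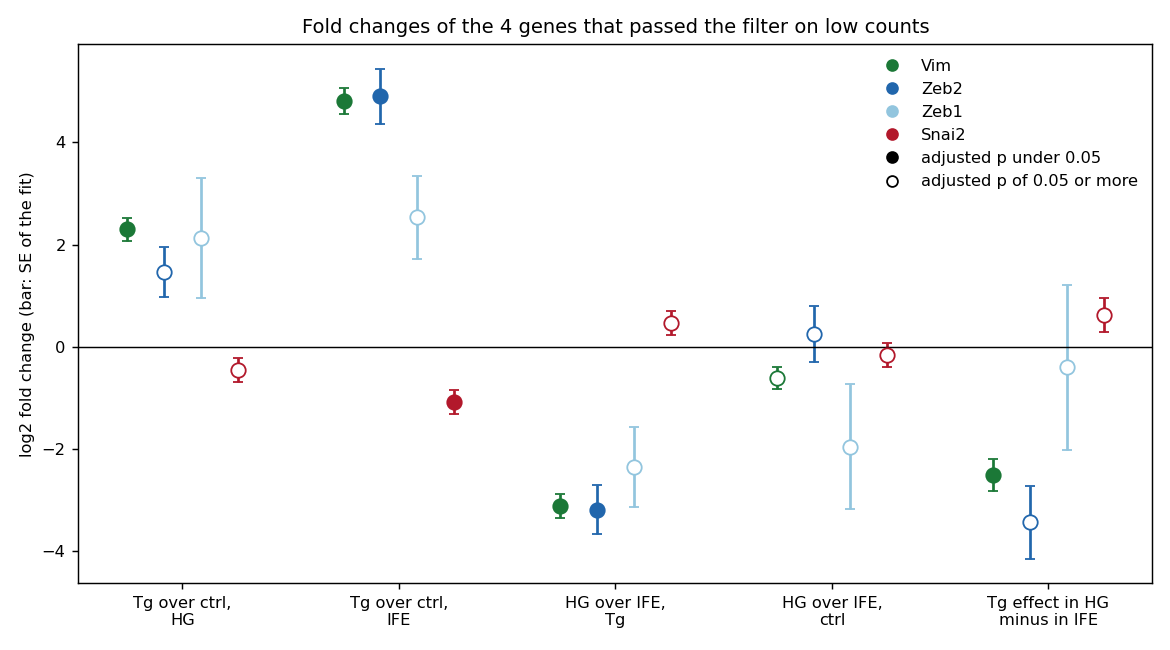
Log2 fold changes of Vim, Zeb2, Zeb1 and Snai2 in the 5 comparisons, with the SE of the edgeR fit as bars and filled points where the adjusted p is under 0.05. Vim and Zeb2 in IFE stand at 4.80 and 4.90, Snai2 lies below 0 in both transgenic comparisons, and the bars of Zeb1 are the widest.

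Markers of immune cells were higher in the same libraries as Vim and Zeb2. The 16 immune markers found summed to 3520 to 4660 CPM in transgenic IFE, against 146 to 331 CPM in control IFE, and to 315 to 503 CPM in transgenic hair germ, against 86.3 to 224 CPM in control hair germ. Of the 16, 15 rose and 0 fell in IFE (all but Cd207), and 4 rose and 0 fell in hair germ (Laptm5, Lyz2, Ptprc and Sfpi1). Ptprc, the leukocyte antigen CD45, averaged 337 ± 58.4 CPM in transgenic IFE and 19.8 ± 0.111 CPM in control IFE, and 29.7 ± 1.12 CPM in transgenic hair germ and 11.2 ± 0.737 CPM in control hair germ (SD over 2 pups). Marker genes at 0 in both libraries of a group were Sfpi1 in control hair germ and Cd207, a Langerhans cell lectin, in control IFE. The part of immune cells in the Vim and Zeb2 results was not tested, and in such bulk libraries more cells of a type and more RNA per cell cannot be told apart.

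Within a library, Vim ranged less against Ptprc than in itself. Ptprc was also higher in transgenic pups of both populations, so a ratio to it narrows the range by construction. Ratios to genes that were higher in these libraries but are not immune markers were not taken, and the source of Vim was not tested. The ratio of Vim to Ptprc was 16.7 and 18.9 in transgenic IFE, against 11.6 and 9.94 in control IFE, and 25.2 and 20.9 in transgenic hair germ, against 13.6 and 11.2 in control hair germ. Each transgenic library had a ratio to Ptprc above each control library, which was not so against the summed immune markers. Vim per immune sum was 1.35 and 1.59 in transgenic IFE, against 0.696 and 1.34 in control IFE, and 1.45 and 2.02 in transgenic hair germ, against 0.653 and 1.53 in control hair germ, so that the groups overlapped in hair germ and all but met in IFE. Zeb2 per Ptprc was 0.779 and 0.571 in transgenic IFE, against 0.711 and 0.159 in control IFE, and 0.863 and 0.841 in transgenic hair germ, against 1.08 and 0.593 in control hair germ, so these ratios overlapped in both populations. Zeb2 per immune sum was 0.0632 and 0.0480 in transgenic IFE, against 0.0426 and 0.0216 in control IFE, with no overlap, and 0.0497 and 0.0815 in transgenic hair germ, against 0.0518 and 0.0808 in control hair germ, with overlap. Zeb1 per Ptprc was 0.0324 and 0.0447 in transgenic IFE, below the 0.0526 and 0.147 of control IFE, and 0.0942 and 0.0714 in transgenic hair germ, against 0 and 0.0847 in control hair germ, which overlapped. Per immune sum, Zeb1 overlapped between transgenic and control libraries in both populations.

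The sum of melanocyte markers was also higher in transgenic pups, at a like level in both populations, though single markers differed between them. The 11 markers summed to 149 to 170 CPM in transgenic IFE, against 21.5 to 24.4 CPM in control IFE, and to 157 to 206 CPM in transgenic hair germ, against 32.8 to 36.6 CPM in control hair germ. In IFE 5 rose (Dct, Gpnmb, Kit, Mitf and Pmel) and in hair germ 4 did (Dct, Gpnmb, Kit and Pmel), and 0 fell. Between the populations of transgenic pups 2 of the 11 passed. Dct was higher in hair germ, at 53.5 CPM against 15.4 CPM in IFE, and Mitf was lower, at 17.7 CPM against 48.7 CPM. Mlana and Sox10 were at 0 in both control groups, and Tyrp1 and Slc45a2 in control IFE. The part of melanocytes in the Vim and Zeb results was not tested.

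The sum of fibroblast markers was not higher in transgenic pups. Their 10 genes summed to 140 to 176 CPM in transgenic IFE, against 198 to 412 CPM in control IFE, and to 237 to 256 CPM in transgenic hair germ, against 345 to 502 CPM in control hair germ. Of the 5 tested, 0 rose or fell in either population. The list median of log2 fold changes was -0.29 in hair germ and -0.40 in IFE. Without the 2 Rn45s-rich libraries, with 8 tested, it was 1.06 in hair germ and -0.22 in IFE. The part of fibroblasts in the Vim and Zeb results was not tested. Lum was at 0 in every group but transgenic hair germ, Dpt in every group but control IFE, and Pdgfra in control hair germ.

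**Figure D4:**
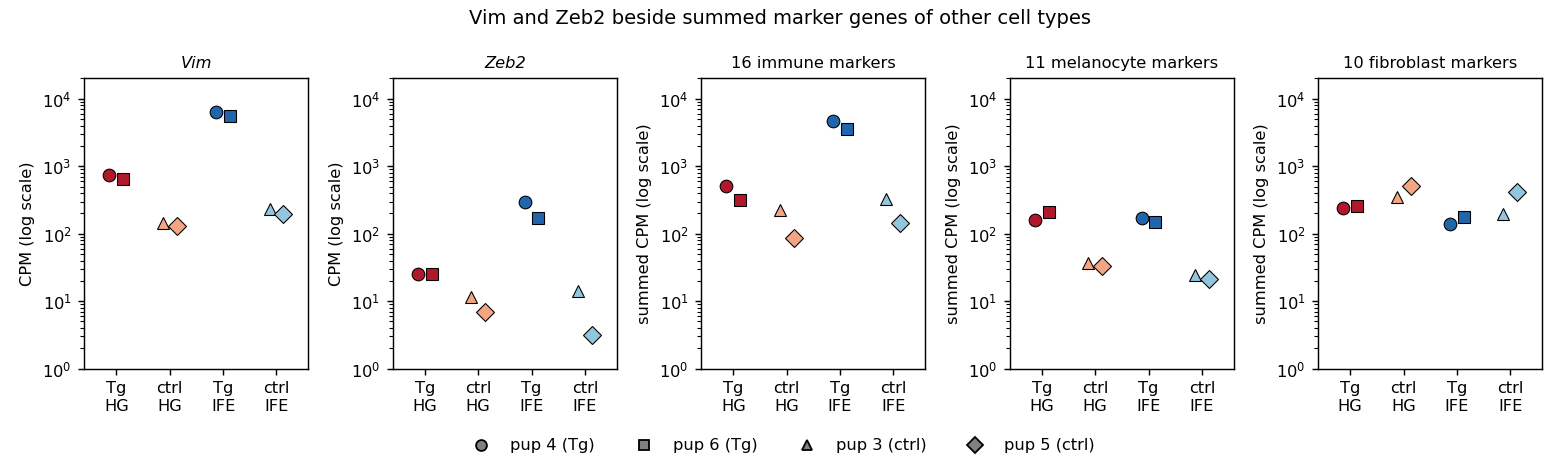
CPM of Vim and Zeb2 in each library beside the summed CPM of immune, melanocyte and fibroblast marker genes, on log axes of equal range, with transgenic libraries left of controls. The immune sum is highest in transgenic IFE, as are Vim and Zeb2, the melanocyte sum is at a like level in both transgenic groups, and the fibroblast sum is below control in both.

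Of the other cell types, 0 markers of dermal papilla (4 tested), endothelium (4), mural cells (3) or Schwann cells (4) rose or fell in either population. Endothelial markers summed to 13.4 to 18.6 CPM in transgenic IFE, above the 0.255 to 5.57 CPM of control IFE, and overlapped in hair germ. Schwann cell sums were 223 to 279 CPM in transgenic hair germ, above the 168 to 176 CPM of control hair germ, and overlapped in IFE. Dermal papilla sums were lower in transgenic IFE (94.7 to 113 CPM, against 123 to 151 CPM) and overlapped in hair germ. Most single markers of that list went the other way from the IFE sum. In each population 3 of the 4 tested had log2 fold changes above 0, and 1, Vcan, was below (-0.45 in IFE and -0.03 in hair germ). Mural sums overlapped in both populations. Among 6 Merkel cell markers Krt18 rose in IFE and 0 passed in hair germ, and among 9 hair germ genes Trps1 rose in both. Merkel cell markers summed to 22.7 to 36.0 CPM in transgenic IFE, against 2.09 to 2.72 CPM in control IFE. In hair germ they summed to 44.6 to 63.0 CPM in transgenic pups, against 5.85 to 15.9 CPM in controls. The part of these cell types in the Vim and Zeb results was not tested. Without both libraries of pup 4, 13 immune and 2 melanocyte markers rose in IFE and 0 of either in hair germ. Without the 2 Rn45s-rich libraries these were 15 and 1 in IFE and 1 and 0 in hair germ.

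The genes whose pattern over the 8 libraries lay nearest to a member were named by a fixed measure, the root mean square difference of centred log2 CPM, over 10174 genes. These genes come from the same 8 libraries as the marker results and are not separate evidence on cell types. For Vim they were Adam19 (0.268), Fmnl1 (0.360), Cd14 (0.364) and Rassf4 (0.371), where the median gene was at 2.15. Fmnl1 is a formin of leukocytes, and Cd14 is the lipopolysaccharide co-receptor of myeloid cells. Adam19, a membrane metalloprotease, averaged 178 CPM in transgenic IFE and 8.56 CPM in control IFE, and 20.6 CPM in transgenic hair germ and 5.06 CPM in control hair germ.

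For Zeb2 the nearest were Cd68 (0.332), Hexa (0.407), Lyn (0.419) and Tifab (0.463). Cd68 is a lysosomal glycoprotein of macrophages and one of the immune markers above, Hexa a lysosomal enzyme, and Lyn a kinase of blood cells. Cd68 averaged 107 CPM in transgenic IFE and 6.85 CPM in control IFE, and 17.8 CPM in transgenic hair germ and 5.72 CPM in control hair germ. For Snai2 they were Mast4 (0.108), Nfyb (0.132), Peg3 (0.134) and Lama3 (0.136), where the median gene was at 0.580. Lama3, a laminin chain of the epidermal basement membrane, averaged 805 CPM in transgenic IFE and 1514 CPM in control IFE, and 964 CPM in transgenic hair germ and 1477 CPM in control hair germ. Zeb1 was too low for this measure.

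Other transcription factors of EMT were counted beside Zeb2. Of 12 listed, 7 were tested, and 0 rose or fell in transgenic over control IFE (median log2 fold change -0.39, against -0.01 for all tested genes) or in hair germ (-0.16, against 0.04). Foxc2 was at 0 in all 4 groups. Between the populations of transgenic pups 1 of the 7, the E-box factor Tcf3, was higher in hair germ. It had 236 CPM in hair germ and 127 CPM in IFE of these pups (log2 fold change 0.89, SE 0.22, adjusted p = 0.0418). In control pups Tcf3 had 261 CPM in hair germ and 194 CPM in IFE and did not pass. Co-repressors and turnover factors of the Zeb and Snail proteins, such as Ctbp1 and Kdm1a, gave 0 of 13 in either population, with medians of -0.29 in IFE and -0.05 in hair germ.

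Epithelial genes that Zeb and Snail proteins are known to repress, with factors that guard the epithelial state, showed 1 call. Grhl2, a grainyhead factor that maintains epithelial junction genes, fell in IFE to 118 ± 8.24 CPM in transgenic pups, against 224 ± 28.4 CPM in controls (log2 fold change -0.92, SE 0.20, adjusted p = 0.0171), the only one of 29 tested. It did not pass without both libraries of pup 4, without the 2 Rn45s-rich libraries or with scaling by library size alone, where 0 of the list passed in IFE. In hair germ 0 of the 29 rose or fell. The list median was -0.22 in IFE and 0.21 in hair germ, against -0.01 and 0.04 for all genes.

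Cdh1, the E-cadherin gene, is named here after its values were seen. Its level was 1119 and 1204 CPM in transgenic IFE, against 1387 and 1898 CPM in control IFE (log2 fold change -0.50, SE 0.22, adjusted p = 0.259). In hair germ it was 1382 and 1290 CPM in transgenic pups, against 1413 and 1351 CPM in controls (-0.05, SE 0.22, adjusted p = 0.940). The 2 groups overlapped in hair germ and not in IFE.

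Mesenchymal genes gave a mixed picture in IFE, where of 21 tested 2 rose and 1 fell. S100a4, a calcium-binding protein that leukocytes make as well as fibroblasts, had 30.8 and 44.0 CPM in transgenic IFE, against 0 and 2.89 CPM in control IFE (log2 fold change 4.35, SE 0.75, adjusted p = 0.00387). Axl, a receptor tyrosine kinase of mesenchymal and myeloid cells, had 271 and 190 CPM in transgenic IFE, against 76.8 and 112 CPM in control IFE (1.28, SE 0.27, adjusted p = 0.0136). Postn, a matrix protein of fibroblasts, fell to 408 and 489 CPM in transgenic IFE, against 1156 and 988 CPM in control IFE (-1.26, SE 0.24, adjusted p = 0.00820).

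The median of the 21 was -0.42 in IFE and 0.04 in hair germ, where 0 rose or fell, against -0.01 and 0.04 for all genes. Only S100a4 passed in IFE without pup 4 or without the 2 Rn45s-rich libraries. Under scaling by library size alone Dcn fell in place of Postn. Among type III and IV filament genes and linkers related to Vim, 0 of 4 tested rose or fell in either population. The medians of these 4 were 0.07 in IFE and 0.27 in hair germ.

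Genes of TGF-β signalling, an inducer of Zeb and Snail factors, gave calls in both populations. In the test of the difference between the populations 1 of the 12, Tgfbr1, passed. That call was absent when any single transgenic library, pup 4 or the 2 Rn45s-rich libraries were left out. In IFE 4 of 12 rose and 0 fell. Tgfbr1, the type I receptor, had 495 and 465 CPM in transgenic IFE, against 96.3 and 99.0 CPM in control IFE (log2 fold change 2.30, SE 0.19, adjusted p = 8.04e-05). Tgfb1, the ligand that leukocytes make in quantity, had 95.0 and 94.8 CPM in transgenic IFE, against 12.7 and 26.1 CPM in control IFE (2.25, SE 0.48, adjusted p = 0.0159).

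The others were Skil, a Smad co-repressor (1.16, SE 0.25, adjusted p = 0.0159), and the inhibitory Smad7, named outside the rule (1.60, SE 0.35, adjusted p = 0.0179). In hair germ 1 rose, the ligand gene Tgfb2, with 220.5 and 200 CPM in transgenic pups, against 24.8 and 11.8 CPM in controls (3.54, SE 0.53, adjusted p = 0.0171). In IFE Tgfb2 had a log2 fold change of 1.72 (SE 0.53, adjusted p = 0.0831). Without pup 4 Tgfbr1 alone passed in IFE and 0 in hair germ, and without the 2 Rn45s-rich libraries Tgfb2 and Tgfbr1 passed in IFE and Tgfb2 in hair germ. The list medians were 0.23 in IFE and 0.02 in hair germ.

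Between hair germ and IFE of transgenic pups, Tgfbr1 and Tgfbr2, the 2 receptor chains, were lower in hair germ (log2 fold changes -2.39 and -1.02, adjusted p = 0.000153 and 0.0108), and 1 of the 12, Tgfb3, was higher. Fn1, the fibronectin gene, was higher in hair germ, with 1103 CPM in hair germ and 326 CPM in IFE of these pups (1.76, adjusted p = 0.00543), and S100a4 was lower (-3.46, adjusted p = 0.0115), as was Axl. Control pups had means in the same direction for each of these genes, though 0 of the 2 lists passed there. Fn1 had 933 CPM in control hair germ and 220 CPM in control IFE, Tgfb3 70.8 and 23.5 CPM, and Tgfbr2 139 and 241 CPM. All 16 immune markers were lower in hair germ than in IFE of transgenic pups, and 15 of them passed (all but Cd207).

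**Figure D5:**
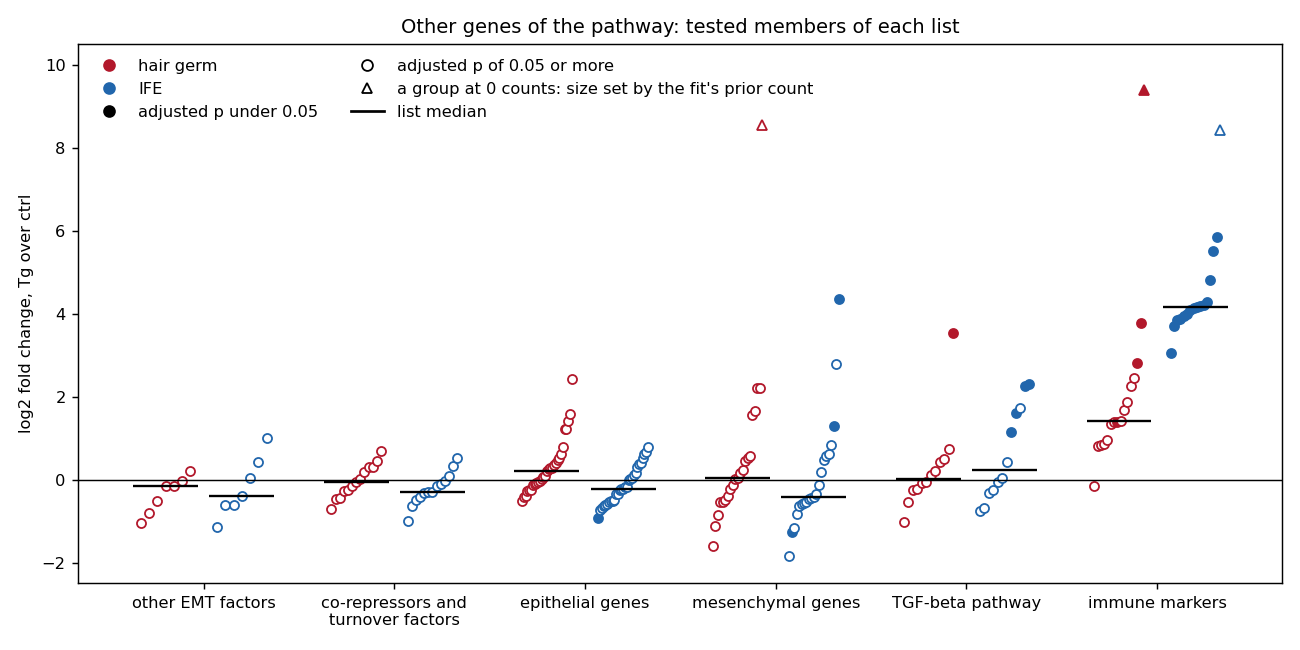
Log2 fold changes of transgenic over control for the tested genes of 6 lists, in hair germ (red) and IFE (blue), with filled symbols where the adjusted p is under 0.05, triangles for genes with a group at 0 counts, whose size depends on the prior count of the fit, and black bars at list medians. Immune markers in IFE lie around 4.15, while the epithelial and mesenchymal lists have medians of -0.22 and -0.42.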

How the data were processed

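Per the labels' protocols, RNA of sorted cells was extracted with Trizol and made into stranded total RNA libraries with a low-input SMARTer kit. The authors deposited raw read counts per gene symbol. Per the submitters' processing notes the tools included TopHat and HTSeq and the build was mm10 (GRCm38), but no source used here gives their versions or the strand setting. A deposited matrix of normalised signal was not used. Each pup number is 1 animal per the labels, so hair germ and IFE are paired by pup, and deviations from group means correlated over genes between the 2 libraries of a pup, at 0.0868 in transgenics and 0.117 in controls. The genotype arms share no pup.

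Counts were fitted in R 4.3.3 with edgeR 4.0.16 (TMM scaling, filterByExpr by group, 4 group means over 8 libraries, glmQLFit with legacy set to FALSE, two-sided glmQLFTest), with Benjamini-Hochberg adjustment within each comparison over all 14176 tested genes and a threshold of 0.05. The SE was derived by dividing the log2 fold change by the root of the F statistic and is not the spread between pups, while values after ± are SDs over n = 2 pups. CPM are scaled by TMM. Folds and ratios between groups come from the fit or from summed counts, each as named. Those in the order of groups by mean level are ratios of mean CPM. Summary lines of the count files stayed out of all totals. The fit has 4 residual degrees of freedom, and limits of 3 counts and 95% intervals cover counting error only. Seed matches were searched after the stop codon in 1 coding transcript a gene (GENCODE M21), an APPRIS principal one where there is one and otherwise the one with the longest 3′ UTR. miR200primary has no stated coordinates.

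The members and lists were chosen with earlier results of these data known. Named are all 7 members, up to 3 called genes with the smallest p per pathway list (2 between populations), sort genes, Ptprc and the 4 genes most like each member whose mean log2 CPM reaches 2. Alternatives were other scaling, no filter, DESeq2 1.42.0, limma-voom (limma 3.58.1), the older edgeR method, each library left out, pup 4 or the 2 Rn45s-rich libraries left out, smaller fits, and pup as a block.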

Additional observations from a re-analysis of the deposited data

Results flagged for a closer look

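Vim, Ptprc and Tgfbr1 are listed here because the effect of the transgene differed between hair germ and IFE by a test of that difference in edgeR, over all tested genes. The log2 effect in hair germ minus that in IFE was -2.51 for Vim (SE 0.31, adjusted p = 0.0284), -2.69 for Ptprc (SE 0.33, adjusted p = 0.0284) and -1.87 for Tgfbr1 (SE 0.27, adjusted p = 0.0437). All 4 transgenic libraries were above the controls of their own population for each of the 3 genes. By itself such an order is common, at 22.4% of tested genes in hair germ and 27.9% in IFE. Vim and Ptprc were called higher in both populations, so for them the difference is one of size. Tgfbr1 was called higher in IFE only. In hair germ it averaged 91.5 CPM in transgenic and 68.3 CPM in control pups. That rise of 0.42 on the log2 scale was not called by edgeR (adjusted p = 0.281). Vim, an intermediate filament gene, averaged 683 ± 64.9 CPM in transgenic and 139 ± 10.2 CPM in control hair germ, and 5953 ± 498 CPM in transgenic and 213 ± 24.6 CPM in control IFE (SD over 2 pups). The call on the difference between populations was not stable for any of the 3 genes. It was absent when any single transgenic library, both libraries of pup 4 or the 2 Rn45s-rich libraries were left out.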

How the results depend on the processing

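Directions and calls of Vim and Zeb2 in IFE were the same under all 17 alternatives, and so was Vim in hair germ except without both libraries of pup 4. Snai2 in IFE kept its direction in all 17 and its call in 9. Members called were 0 in hair germ without pup 4 (1 as reported), 2 to 4 in IFE (3 as reported), and 0 of 4 between control populations throughout. Between transgenic populations 2 were called as reported, 1 to 3 with single libraries left out and 0 without pup 4. For the difference of effects 1 was called as reported, 2 (Vim and Zeb2) with library size alone, DESeq2 and the replicate block, 0 without pup 4 or the 2 Rn45s-rich libraries, and 0 to 2 with single libraries left out.

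All genes called in hair germ were 135 as reported, 316 with library size alone, 663 with DESeq2, 17 with limma-voom, 54 with the older edgeR method, 1 without pup 4, 20 without the 2 Rn45s-rich libraries, 22 in the fit of 4 libraries and 14 to 347 with single libraries left out. In IFE they were 899, against 541 with the older method, 207 without pup 4, 195 without the Rn45s-rich libraries and 303 to 1209 with single libraries left out. Size alone raised the median log2 fold change of all genes in IFE to 0.15, against -0.01 as reported, and the called genes that were higher to 867 of 909, against 707 of 899. Dropping pup 4 or the Rn45s-rich libraries left 4 and 7 called lower. Between control populations 1 gene was called, against 2 with RLE, 29 with size alone, 3 without a filter, 149 with DESeq2, 0 with limma-voom, 6 with the older method, 0 without the Rn45s-rich libraries, 7 with the replicate block and 0 to 123 with single libraries left out. Between transgenic populations 655 were called, against 336 with the older method, 0 without pup 4, 192 without the Rn45s-rich libraries, 1385 in the fit of 4 libraries, 1018 with the replicate block and 47 to 1026 with single libraries left out. The difference of effects gave 19, against 97 with size alone, 45 without a filter, 177 with DESeq2, 1 with limma-voom, 2 with the older method, 0 without pup 4 or the Rn45s-rich libraries, 86 with the replicate block and 0 to 192 with single libraries left out.

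Directions turned only for differences that had not passed. Between control populations Snai2 was 0.13 with size alone and -0.41 to 0.18 with single libraries left out, and Zeb2 -0.63 to 1.57. The difference of effects for Zeb1 was 0.76 with limma-voom and -1.49 to 5.06 with single libraries left out. The replicate block changed no other call of a member. Where a library is left out, its group's lone library is assumed to vary like the other groups. The causes were not tested. The depth limits Zeb1, Snai1, Twist1 and Twist2.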
